A study of Mus musculus with 8 samples.

Results

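The 8 genes described here encode the proteins that fuse synaptic vesicles with the nerve terminal membrane, namely the SNAREs Snap25, Stx1a, Vamp1 and Vamp2, the complexins Cplx1, Cplx2 and Cplx3, and the ATPase Nsf. They were chosen by gene symbol from the 24343 genes of a whole-brain bulk RNA-seq table, and together they have 10 of its 34535 RefSeq transcripts. Whole brains came from 3 C57BL/6NCrl mice aged 56–62 days that shared a single condition, with no treatment or genotype contrast. The brains gave 8 libraries, of which mouse 1 and mouse 2 contributed 3 each and mouse 3 contributed 2. The labels of these mice give no sex, and they do not say what the library numbers stand for. Every comparison of mice below therefore concerns these 3 animals, and its p-values measure the spread between libraries, which may be technical. Values are FPKM (sequenced fragments divided by transcript length and library size), summed over the transcripts of a gene, and each SD is over the means of the 3 mice.

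SNAREs are membrane-anchored proteins that pull membranes together. The vesicle SNARE synaptobrevin, encoded by Vamp1 or Vamp2, zips into a tight helical bundle with syntaxin-1 and SNAP-25 of the plasma membrane, and complexins bind this bundle and help to hold it ready until calcium triggers release. After fusion, the ATPase NSF and its SNAP adaptors pull the bundle apart so that the SNAREs can be used again.

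Of the 8 genes, Snap25 and Vamp1 have more than 1 transcript in the table, and in both cases the transcripts differ in the protein they encode. Snap25 lies on the forward strand of chromosome 2, from 136713450 to 136782428 (coordinates of GRCm38, mm10). Its transcripts hold 8 exons each and use alternative coding exons of 118 bases that lie next to each other, an upstream exon (isoform SNAP25a) and a downstream exon (isoform SNAP25b). The exons are shown because they are where reads of both isoforms can be told apart. Capitals mark the 31 bases at which they differ, so that 73.7% of the bases are identical. The upstream exon is at chr2:136769743-136769860 and the downstream exon at chr2:136770057-136770174, both on the forward strand.
Snap25 upstream exon: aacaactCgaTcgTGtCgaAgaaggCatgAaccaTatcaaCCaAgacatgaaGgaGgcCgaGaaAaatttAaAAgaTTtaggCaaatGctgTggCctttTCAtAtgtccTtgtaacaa
Snap25 downstream exon: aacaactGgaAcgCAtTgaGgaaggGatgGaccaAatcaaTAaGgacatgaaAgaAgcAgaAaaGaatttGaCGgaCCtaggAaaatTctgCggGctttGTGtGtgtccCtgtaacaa
The differences change 26 codons, of which 9 encode another amino acid. SNAP25a is best known from the developing brain and SNAP25b from the adult.

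Vamp1 lies on the forward strand of chromosome 6, from 125215581 to 125222306. Its transcripts part at the very end of the coding sequence. The spliced form leaves the exon after base 52 of the stretch shown, skips an intron of 412 bases and ends its coding sequence in a further exon, whereas the unspliced form reads on into that intron and stops sooner. Capitals mark the bases that belong to the coding sequence of only 1 of the forms, stop codon included. These are 17 bases of the spliced and 14 of the unspliced form. The unspliced transcript keeps the intron and has 4 exons in place of 5. It therefore also holds the 17 bases, after its stop codon. Both stretches start at position 125219586, and they end at 125220066 and 125219651.
Vamp1 spliced end: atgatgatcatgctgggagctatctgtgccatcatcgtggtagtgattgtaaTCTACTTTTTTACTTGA
Vamp1 unspliced end: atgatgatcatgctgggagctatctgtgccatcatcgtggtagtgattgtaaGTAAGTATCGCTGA
The end of this coding sequence encodes the tail anchor of the protein, which lies in the vesicle membrane.

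The other members have 1 transcript each. Vamp2 is on chromosome 11 (69088528 to 69092381, forward strand), Stx1a on chromosome 5 (135023572 to 135051099, forward), Cplx1 on chromosome 5 (108518554 to 108550027, reverse), Cplx2 on chromosome 13 (54371349 to 54383917, forward), Cplx3 on chromosome 9 (57599992 to 57606281, reverse) and Nsf on chromosome 11 (103821783 to 103954056, reverse). In the GENCODE annotation of GRCm38, the loci of Snap25 and Nsf each hold a processed pseudogene and no other annotated gene, and the other 6 loci overlap no other gene. The members are paralogs within their families. Coding sequences were 75% identical between Vamp2 and Vamp1, 79.6% between Cplx1 and Cplx2, and 52.2% and 50.6% between Cplx3 and these complexins. The longest run of bases shared exactly by their reference transcripts was 18 for the VAMPs and 32 for Cplx1 and Cplx2, and it was 12 and 13 for Cplx3 against Cplx1 and Cplx2.

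All 8 genes were detected in every library, and their levels spanned from 3.27 to 1056 FPKM. Snap25, which attaches to the inner face of the plasma membrane, had the highest level of the 8, and the complexin gene Cplx3 the lowest. By FPKM, which divides by transcript length, the order was Snap25, Vamp2, Cplx1, Cplx2, Nsf, Vamp1, Stx1a and Cplx3. Each gene in this order was higher than the next in 8 of 8 libraries. For the pair Cplx2 and Nsf alone the ranges over the libraries overlapped, and the difference of their means, 36.8 FPKM, was about as large as its SD over the mice, 36.7 FPKM.

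Among the SNAREs of the plasma membrane, Snap25 had 1113, 1119 and 1103 FPKM in the libraries of mouse 1, 1087, 1009 and 1071 FPKM in those of mouse 2, and 915 and 1084 FPKM in those of mouse 3. Library 1 of mouse 3 was the lowest, whereas library 2 of that mouse lay within the range of the other mice. The mean was 1056 ± 56.3 FPKM (SD, n = 3 mice), rank 14 of all 24343 genes. Stx1a, which encodes syntaxin-1A, had 54.8, 56.2 and 54.1 FPKM in mouse 1, 49.7, 49.5 and 49.7 FPKM in mouse 2, and 47.5 and 41.4 FPKM in mouse 3, with a mean of 49.7 ± 5.31 FPKM (SD, n = 3 mice). The libraries of the 3 mice did not overlap for Stx1a, with mouse 1 highest and mouse 3 lowest.

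The vesicle SNARE Vamp2 had 394, 381 and 398 FPKM in mouse 1, 381, 349 and 356 FPKM in mouse 2, and 348 and 339 FPKM in mouse 3. Both libraries of mouse 3 lay just below the lowest of the other mice, and the mean was 366 ± 24.0 FPKM (SD, n = 3 mice). Vamp1, the synaptobrevin that is best known from brainstem and spinal cord, had 82.1, 85.1 and 86.4 FPKM in mouse 1, 68.5, 84.6 and 83.3 FPKM in mouse 2, and 88.7 and 102 FPKM in mouse 3, with a mean of 86.2 ± 8.44 FPKM. Mouse 3 was the highest for Vamp1, and library 1 of mouse 2 lay apart below the others.

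Of the complexins, Cplx1 had 266, 261 and 267 FPKM in mouse 1, 248, 240 and 249.8 FPKM in mouse 2, and 240 and 238 FPKM in mouse 3, with a mean of 250.0 ± 13.3 FPKM (SD, n = 3 mice). Mouse 1 was the highest, and mice 2 and 3 overlapped. Cplx2 had 219, 199.6 and 208 FPKM in mouse 1, 217, 205 and 207 FPKM in mouse 2, and 224 and 207 FPKM in mouse 3. The libraries of the mice overlapped throughout, and with 211 ± 3.68 FPKM its coefficient of variation between mice, 1.74%, was the smallest of the 8 genes. Cplx3 had 4.03, 2.48 and 2.75 FPKM in mouse 1, 3.599, 2.55 and 2.78 FPKM in mouse 2, and 3.78 and 3.72 FPKM in mouse 3, with a mean of 3.27 ± 0.422 FPKM. The spread within mice 1 and 2 was as wide as the spread between the mice. The authors' confidence bounds for Cplx3 reached 16.8–20.97% to either side of the value, against 1.58–1.88% for Cplx2, so the low level of Cplx3 was also the least precise of the complexins. Complexin 3 is known from ribbon synapses of the retina, among other places. The sum of 4 retina markers (Sag, Pde6b, Gnat1 and Rcvrn) was 0.581–1.503 FPKM per library, below the lowest Cplx3 value of 2.48 FPKM. Which cells the Cplx3 RNA came from was not tested.

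Nsf had 189, 198.7 and 196 FPKM in mouse 1, 175, 203 and 199.5 FPKM in mouse 2, and 148 and 124 FPKM in mouse 3. Both libraries of mouse 3 lay below all 6 others. The mean was 174 ± 33.0 FPKM (SD, n = 3 mice), and its coefficient of variation between mice, 18.9%, was the largest of the 8 genes, where the median over 13001 genes of 1 FPKM or more was 12.3%.

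**Figure D1:**
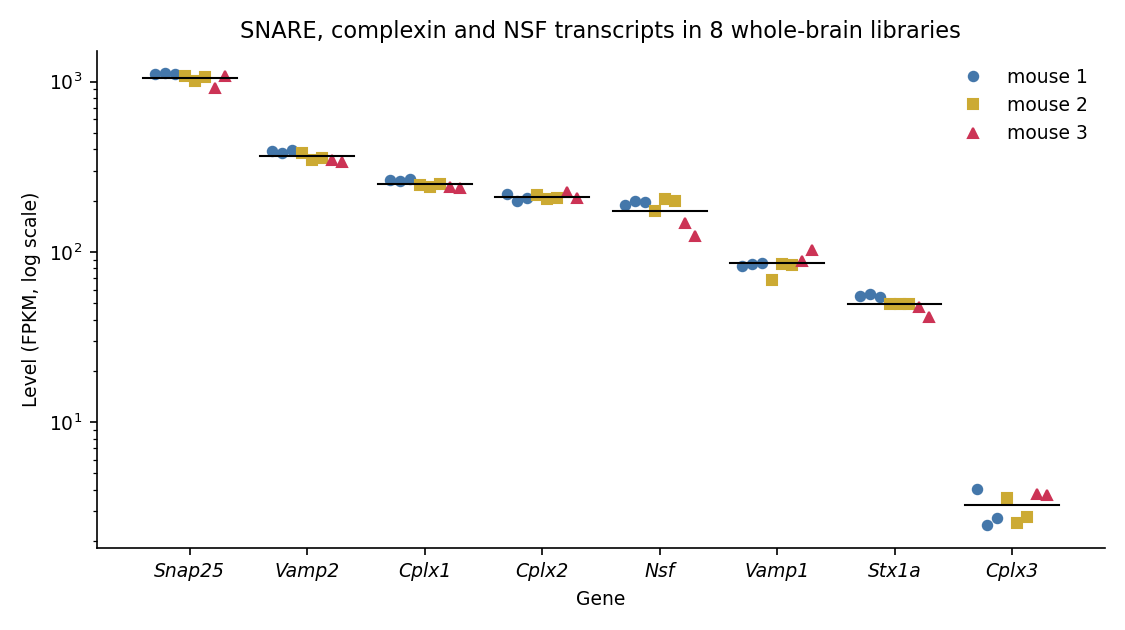
Level of each of the 8 genes (FPKM, log scale) in the 8 libraries, with circles for mouse 1, squares for mouse 2, triangles for mouse 3 and a line at the mean of the 3 mice. Levels fall from 1056 FPKM for Snap25 to 3.27 FPKM for Cplx3, and the triangles of Nsf (148 and 124 FPKM) lie below all its other points.

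Set beside its relatives, Snap25 made up 88.5 ± 0.745% (SD, n = 3 mice) of the summed FPKM of its family, followed by Snap47 with 10.4%, while Snap29 and Snap23 had under 1% each. Of the VAMPs in the list, Vamp2 accounted for 72.5 ± 4.26% and Vamp1 for 17.1 ± 1.43%. Vamp4, Vamp3 and Vamp8, which act mainly on endosomal and other membranes, had 20.7, 17.1 and 13.8 FPKM. Vamp7 was listed at 0 in all 8 libraries. The list's Vamp7 row lies on an unlocalised scaffold of the X chromosome, so nothing was read from it.

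Cplx1 and Cplx2 held nearly all of the complexin FPKM, with 53.8 ± 1.70% and 45.5 ± 1.61% (SD, n = 3 mice), and Cplx3 held 0.704%. Cplx4, the other complexin known from retina, was at 0 in 4 libraries and reached at most 0.144 FPKM. Beside Nsf, its adaptor genes Napb, Napa and Napg had 122, 63.2 and 39.4 FPKM.

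**Figure D2:**
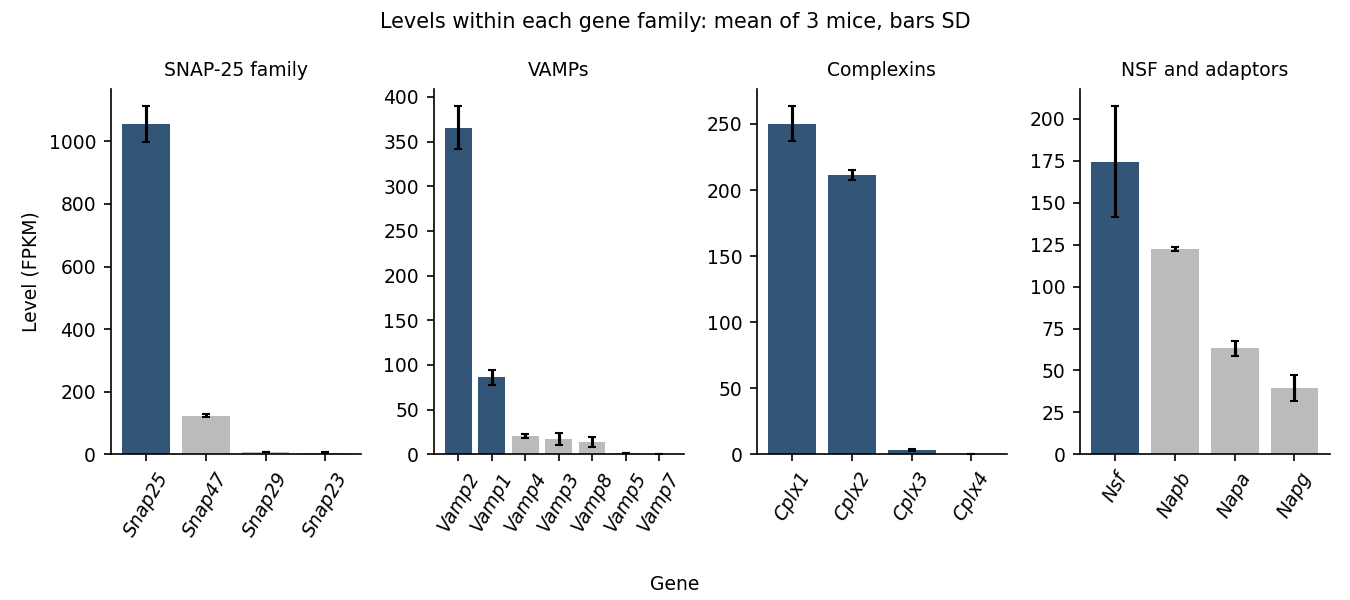
Mean FPKM of the genes of 4 families, with the genes described here in dark blue, their relatives in grey and bars of SD over 3 mice. Snap25, Vamp2 and Nsf are the highest of their families, and Cplx1 and Cplx2 stand at 250.0 and 211 FPKM.

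Ratios between genes of a library do not depend on the total scaling of that library, so they were compared next. They can still carry a trend with transcript length that differs between libraries. Differences between the mice were tested with an exact permutation test over all 280 groupings of the libraries, whose statistic (the sum of squares between mice of the log2 ratio) has no direction, adjusted over the 6 ratios by Benjamini-Hochberg. Vamp2 exceeded Vamp1 by 4.25-fold (3.32- to 5.57-fold over the libraries). The ratio was 4.79, 4.48 and 4.61 in mouse 1, 5.57, 4.12 and 4.28 in mouse 2, and 3.93 and 3.32 in mouse 3. Mouse 3 had the lowest values, but the difference between the mice did not pass the exact permutation test (p = 0.121, adjusted p = 0.243).

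Cplx1 exceeded Cplx2 by only 1.18-fold, with 1.21, 1.31 and 1.29 in mouse 1, 1.14, 1.17 and 1.21 in mouse 2, and 1.07 and 1.15 in mouse 3. Cplx1 was higher in all 8 libraries, and mouse 1 lay above the others (exact permutation p = 0.0286, adjusted p = 0.171). The order of Cplx1 and Cplx2 rests on the length scaling. Cplx2 has the longer transcript (4928 against 2192 bases), and without division by length Cplx1 had 0.5262 of the Cplx2 value. Cplx3 stood at 0.0152 of Cplx2, with 0.0124 to 0.0184 over the libraries (exact permutation p = 0.375, adjusted p = 0.562).

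Snap25 exceeded Stx1a by 21.3-fold and Vamp2 by 2.89-fold. Its ratio to Stx1a was 20.3, 19.9 and 20.4 in mouse 1, 21.9, 20.4 and 21.6 in mouse 2, and 19.3 and 26.2 in mouse 3. The lowest and the highest value both came from mouse 3, and a difference between the mice did not pass the test (exact permutation p = 0.611, adjusted p = 0.733). The ratio to Vamp2 ran from 2.63 to 3.20, both again in mouse 3 (p = 0.875 before and after adjustment in the exact permutation test).

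The ratio of Nsf to Snap25 was 0.170, 0.177 and 0.178 in mouse 1, 0.161, 0.202 and 0.186 in mouse 2, and 0.162 and 0.115 in mouse 3. Library 1 of mouse 3 lay beside library 1 of mouse 2, and library 2 of mouse 3 lay below all others (exact permutation p = 0.0714, adjusted p = 0.214). None of the 6 ratios passed the threshold of 0.05 after adjustment in the exact permutation test, and the ratio of Cplx1 to Cplx2 alone did so before it. Removing the trend with transcript length moved the log2 difference of mouse 3 from mice 1 and 2. It went from -0.387 to -0.215 for Nsf to Snap25 and from -0.136 to -0.359 for Cplx1 to Cplx2. The adjusted p-values of the exact permutation test were then 0.779 and 0.0643.

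**Figure D3:**
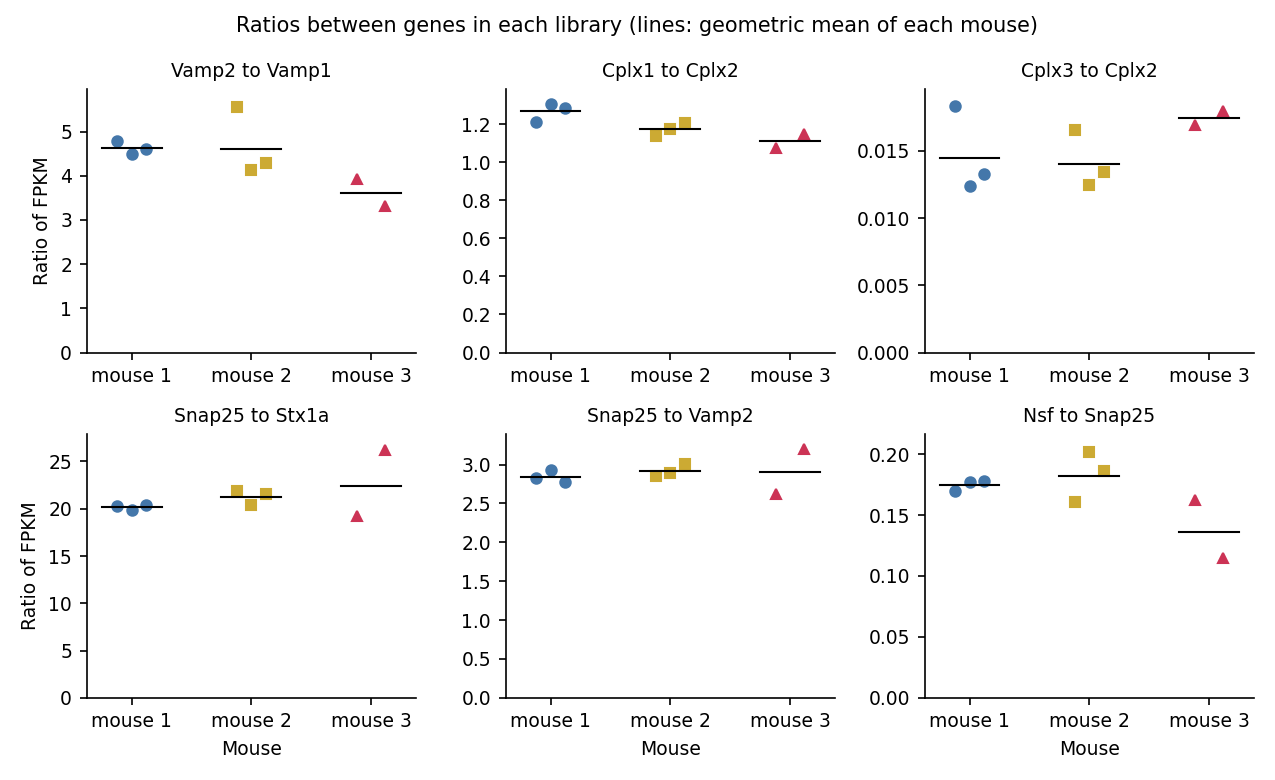
The 6 ratios of FPKM in each library of each mouse (axes from 0), with a line at the geometric mean of each mouse. The means of Vamp2 to Vamp1 and of Cplx1 to Cplx2 are lowest in mouse 3, whose libraries lie far apart for Snap25 to Stx1a (19.3 and 26.2).

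The downstream exon that makes SNAP25b was the main form of Snap25. The transcript with the upstream exon took 10.61, 11.2 and 11.2% of the FPKM of Snap25 in mouse 1, 10.01, 11.8 and 11.8% in mouse 2, and 10.58 and 9.88% in mouse 3. Mouse 3 lay just below mouse 1 and mouse 2 overlapped both, with a mean of 10.8 ± 0.509% (SD, n = 3 mice), and a difference between the mice did not pass the exact permutation test (p = 0.371, adjusted p = 0.371 over 2 shares). In FPKM, the upstream form stood at 114 ± 10.8 and the downstream form at 942 ± 46.1. The authors' confidence bounds reached 5.92–6.85% to either side of the upstream form's value and 4.29–4.37% for the downstream form. Both transcripts are listed with the same length, 2119 bases, so that this share does not depend on the length scaling.

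The spliced form of Vamp1 made up 97.6 ± 0.839% (SD, n = 3 mice). The unspliced form took 3.42, 3.503 and 2.65% in mouse 1, 1.56, 3.00 and 2.98% in mouse 2, and 1.26 and 1.79% in mouse 3. Mouse 3 lay below mouse 1 without overlap, and library 1 of mouse 2 lay among the values of mouse 3 (exact permutation p = 0.0893, adjusted p = 0.179). At 1.07 to 2.98 FPKM, the unspliced form carried confidence bounds of 24.1–45.4% to either side. Shares of this form are therefore known only to within such bounds.

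**Figure D4:**
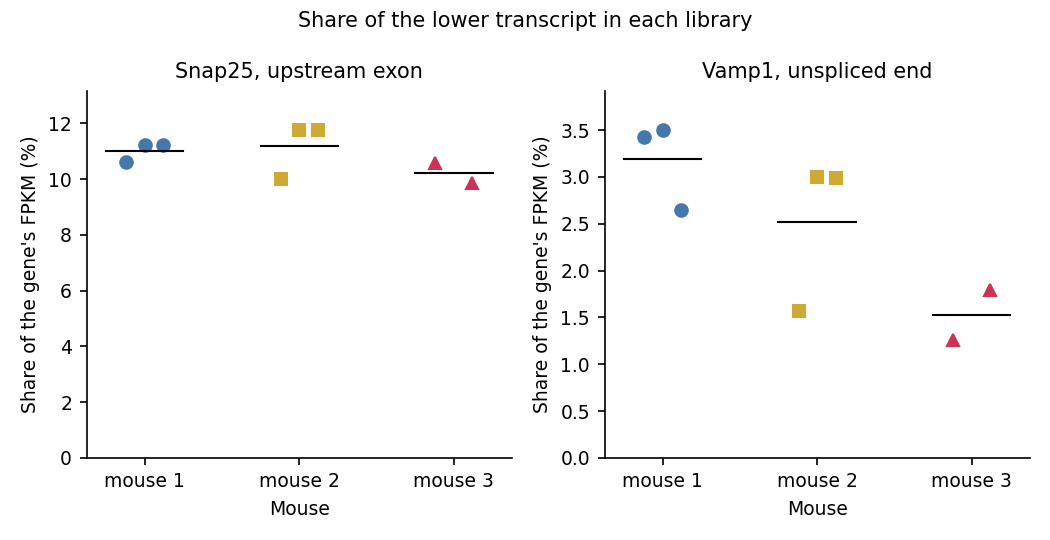
Share of the gene's FPKM held by the Snap25 transcript with the upstream exon (left) and by the unspliced Vamp1 transcript (right) in each library, with a line at the mean of each mouse. The Snap25 share stays between 9.88 and 11.8%, and the Vamp1 share is between 1.26 and 3.503%.

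Differences between the mice were then tested for every gene by the moderated F-test of limma, fitted to log2(FPKM + 1) and adjusted by Benjamini-Hochberg over 13001 genes (those averaging 1 FPKM or more). This F-test covers any difference among the 3 mice. Its p-values are not those of the difference of mouse 3 from mice 1 and 2, which gives direction and size. Nsf and Stx1a differed between the mice, both with mouse 3 lowest, and the other 6 genes did not pass the test. These are 2 of 8, against 26.9% of all genes tested, of which 1954 were higher and 1542 lower in mouse 3 than in the mean of mice 1 and 2. The count of the members is thus near the background. Mouse 3 stood apart in further respects. The deposited FPKM summed to 295541–345572 per library in mice 1 and 2 and to 384885 and 409889 in mouse 3. Deviations of genes from their mean also rose with transcript length in mice 1 and 2 (Spearman rank correlations of 0.183–0.503 across genes) and fell with it in mouse 3 (-0.365 and -0.576). Each deviation is from the gene's mean over all 8 libraries. The opposite trends are therefore relative to each other and not separate results for each mouse.

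Nsf was lower in mouse 3 by 0.51 on the log2(FPKM + 1) scale (a difference of -0.51, SE 0.096, adjusted p = 0.0160 in limma), with means of 194 and 193 FPKM in mice 1 and 2 and 136 FPKM in mouse 3. It was the only transcript of the 10 whose deposited confidence bounds in mouse 3, 121 to 152 FPKM, lay wholly outside those of the other mice. Without library 2 of mouse 3 the call was lost, as were most calls over all genes, and the difference was -0.38. Without library 1 of that mouse the difference was -0.63. With mouse 3 reduced to a single library, that library is assumed to vary like those of the other mice.

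Stx1a was lower in mouse 3, with a difference of -0.23 (SE 0.071). The F-test of limma over the 3 mice gave an adjusted p of 0.0476, close to the threshold of 0.05. Mouse 2 minus mouse 1, which also enters that test, was -0.147 (SE 0.071). The means were 55.1 FPKM in mouse 1, 49.6 FPKM in mouse 2 and 44.4 FPKM in mouse 3. Over 16 alternative settings its adjusted p in limma ran from 0.0043 to 0.145 and passed the threshold in 5. Without library 2 of mouse 3 the difference of mouse 3 from mice 1 and 2 was -0.13. Without a library of mouse 1 it remained between -0.22 and -0.24, with adjusted p-values in limma of 0.119 to 0.145.

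The 6 other genes had differences of -0.12 for Snap25 (SE 0.11), -0.13 for Vamp2 (SE 0.080), -0.093 for Cplx1 (SE 0.071), 0.042 for Cplx2 (SE 0.078), 0.22 for Vamp1 (SE 0.099) and 0.25 for Cplx3 (SE 0.15), with adjusted p-values between 0.188 for Vamp1 and 0.899 for Cplx2 in limma. Without library 2 of mouse 3 the difference of Vamp1 was 0.12 and that of Snap25 -0.24. The median over the 8 genes was -0.11, and over all genes tested it was 0.020.

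Scaling each library to the same total (TPM, transcript shares of a fixed total) moved the median of all genes to -0.23 and the calls to 5694, of which 856 were higher and 4838 lower in mouse 3. On that scale 5 of the 8 genes were called, all lower in mouse 3, where 43.8% of all genes were called, 6.58% higher and 37.2% lower. These were Nsf (-0.80), Stx1a (-0.53), Vamp2 (-0.43), Snap25 (-0.42) and Cplx1 (-0.39), whereas Cplx2 (-0.26) was near that median. Vamp1 and Cplx2 changed sign on that scale. With the trend of transcript length removed from each library, Nsf (-0.44, adjusted p = 0.0066) and Stx1a (-0.34, adjusted p = 0.0347) again were the genes called by limma, where 22.0% of all genes were called. Nsf, Stx1a, Vamp2, Snap25 and Cplx1 lay below the median of all genes under each of the 3 scalings, with Nsf the furthest below.

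**Figure D5:**
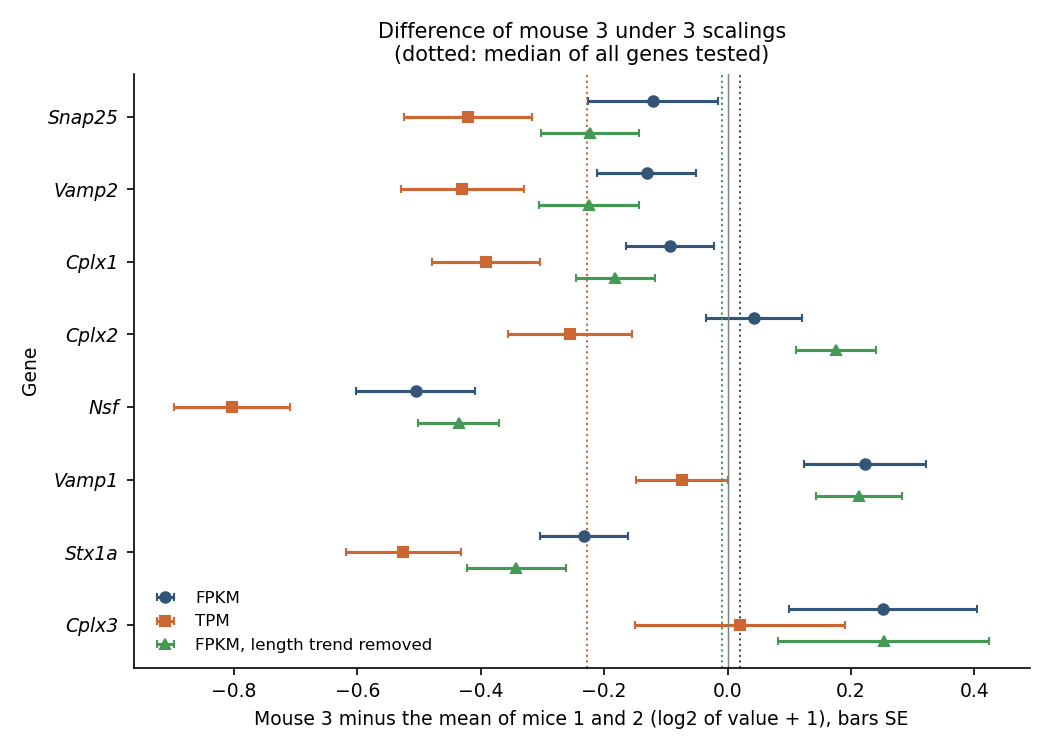
Difference of mouse 3 from the mean of mice 1 and 2 (log2 of value + 1, bars SE) for the 8 genes as FPKM, as TPM and as FPKM with the length trend removed, with dotted lines at the median of all genes tested on each scale. Nsf lies furthest to the left on each scale (-0.51, -0.80 and -0.44), and TPM moves all 8 genes to the left together with the median line.

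Genes of cell types moved between the mice as well. The summed FPKM of 6 neuron markers ran from 787 to 929 in the libraries of mice 1 and 2 and was 697 and 774 in mouse 3, and 3 of the 6 (Rbfox3, Syn1 and Gad1) were called lower in mouse 3, with differences of -0.49 to -0.61. Slc17a7 (-0.22) and Tubb3 (-0.14) did not pass the test, nor did Nefl, which was highest in mouse 3 (0.16, but -0.14 with TPM). With TPM 5 of the 6, all but Nefl, were called lower, where 37.2% of all genes were. The sum of 4 astrocyte markers was 264–286 FPKM in mice 1 and 2 and 415–440 FPKM in mouse 3, with 4 of 4 called higher (1 of 4, Gfap, with TPM). The sum of 4 oligodendrocyte markers was 1902–2100 FPKM against 3676–4561 FPKM, and 1 of 4, Mbp, was called higher. Sums of 4 microglia markers (42.5–48.9 against 53.8–54.7 FPKM) and of 3 endothelial markers (20.4–28.2 against 34.0–36.5 FPKM) were also above in mouse 3. The FPKM total was higher in mouse 3 as well, and these sums were not compared with TPM. Of the microglia markers Aif1 (0.95) and Cx3cr1 (0.35) were called higher and P2ry12 (0.038) and Csf1r (-0.019) were not called. With TPM these 4 stood at 0.69, 0.079, -0.24 and -0.30, where the median of all genes was -0.23. The endothelial markers Cldn5 (0.68), Flt1 (0.28) and Pecam1 (0.12) did not pass the test, and with TPM they stood at 0.40, 0.013 and -0.14. Every gene of these lists, and of the pituitary and skeletal muscle lists, was above 0 in at least 1 library. The 5 pituitary markers summed to 2.12–3.17 FPKM and the 4 skeletal muscle markers to 2.09–13.1 FPKM per library. The highest of each list were Pomc (mean 1.58 FPKM) and Acta1 (mean 3.66 FPKM). The part of these shifts in the lower Nsf and Stx1a of mouse 3 was not tested, and in whole-brain RNA fewer neurons and less RNA per neuron cannot be told apart.

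The wider release machinery was read from a list of 28 further genes, of which 26 had at least 1 FPKM. Of these 26, 10 were called in limma, 5 higher and 5 lower in mouse 3, with a median difference of 0.069. Of all genes tested, 15.0% were called higher and 11.9% lower. This split rests on the scaling, since with TPM 15 were called, 3 higher and 12 lower, with a median of -0.21. On that scale 6.58% of all genes were called higher and 37.2% lower, with a median of -0.23. Among the listed syntaxin-binding protein (Stxbp) genes, whose products clasp syntaxin or SNARE complexes, 3 of 5 were called and all 3 were lower. These were the tomosyn genes Stxbp5 (-0.55) and Stxbp5l (-0.50), and Stxbp6 (-0.44). The Sec1/Munc18 genes Stxbp2 (-0.14) and Stxbp3 (0.28) were not called.

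Of the 3 NSF adaptors, Napg was called lower (-0.50) and Napa (0.15) and Napb (-0.024) were not. The calls among other SNAREs were higher in mouse 3, Vamp3 by 0.81 and Vamp8 by 0.94. Among the priming factors, which ready docked vesicles, Unc13a was called lower (-0.50), whereas Unc13c (0.80), Rims1 (0.45) and Snapin (0.39) were called higher. The 10 called genes kept their direction with TPM and with the length trend removed. Rims1 and Snapin no longer passed the threshold on either of these scales, nor did Vamp8, Stxbp5l and Unc13a with the length trend removed. Without library 2 of mouse 3, 2 of the 26 remained past the threshold, Napg and Unc13c, where 2.86% of all genes did.

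The genes most like each member across the 8 libraries were those with the smallest root mean square difference of log2(FPKM + 1) deviations, among about 5948 other genes with at least 10 FPKM. For Snap25 they were Slc17a6, a vesicular glutamate transporter (0.018), and Syt4, a synaptotagmin (0.020). For Nsf they were Maged1 (0.021) and Gprasp2 (0.025), against a spread of Nsf itself of 0.24. The nearest to Vamp2 were 2310036O22Rik and Cplx1, and the nearest to Stx1a were Mta1 and Coro1c. Cplx1 lay closest to Sec23a and U2af2, Cplx2 to Zmpste24 (0.033, against its own spread of 0.053) and Zbtb4, and Vamp1 to Irak1 and Clptm1l. The nearest to Cplx3 were Ccdc124 (0.11) and Llph (0.12), against its own spread of 0.20. These likenesses are over 8 libraries of 3 mice that share differences in length trend and marker levels, and they are given as description.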

How the data were processed

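The study isolated RNA from 3 whole brains (RNAqueous Micro kit), kept preparations of high integrity, and sequenced Kapa mRNA HyperPrep libraries on the NextSeq500. The authors deposited FPKM for each RefSeq transcript and library, with confidence bounds, a status and the read coverage per base, a signal on which library size still acts. The submitters' processing notes name TopHat, Cufflinks and mm10, without versions. Read length and strand setting are not given in the sources used here. The deposited starts count from 0 and were moved by 1. The authors' estimation divides reads between the transcripts of a gene. The status was FAIL for 8 values, none of a member.

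Gene values are sums over transcripts, and means were taken first within and then over the mice. Depth, as coverage multiplied by transcript length, was 1.31–2.02 gigabases per library. Counting intervals were not computed, since FPKM are not counts. Mice were compared with limma 3.58.1 (R 4.3.3, moderated F-test with a mean-variance trend) on log2(FPKM + 1) and adjusted by Benjamini-Hochberg over 13001 genes, with a threshold of 0.05. Ratios and transcript shares were compared by exact permutation tests written in Python 3.11.15. Both were tested on simulated data. Exon sequences came from GENCODE transcripts of GRCm38 matched to RefSeq. Ratios are geometric means. The length trend was a lowess curve (span 0.3) of each library's log2 deviations on log2 transcript length.

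Alternatives were a pseudocount of 0.1, no minimum or one of 0.1 FPKM, TPM, removal of the length trend, the highest transcript of each gene, a replicate block, values without length scaling, coverage shares, plain means over libraries, and leaving out each library. The length trend together with the replicate block was added after seeing the data. Named were the 8 members, a list of 28 further genes of the release machinery, marker lists of 8 tissues or cell types, and for each member the 2 genes of most similar pattern. Some further genes of these lists are not reported here and were left out of the counts. The members and lists were chosen with earlier results of these data known.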

Additional observations from a re-analysis of the deposited data

Results flagged for a closer look

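Each gene level, ratio and transcript share was searched for a library far from the other 7 (16 measures, all 8 libraries taken as a single group, Dixon's 95% limit). Chance alone passes this limit in about 1 in 20 measures. The search gave 2 results, both in library 2 of mouse 3. The ratio of Snap25 to Stx1a was 26.2 there and the next highest 21.9. The ratio of Nsf to Snap25 was 0.115 there and the next lowest 0.161, a gap of 0.527 of the range and thus barely past the limit.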

How the results depend on the processing

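The order of the 8 mean levels was the same with TPM, the highest transcript, the length trend removed and each library left out. With the length trend removed, however, 5 in place of 7 neighbouring pairs were apart in every library. Without length scaling Cplx2 exceeded Cplx1. The order of all 8 genes was not computed on that scale, and other places in it can change too. There the long transcripts of Cplx2 (4928 bases) and Nsf (3765 bases) gain on those of Vamp2 (2164 bases) and Cplx1 (2192 bases). Members called numbered 1 (Nsf) with a pseudocount of 0.1, with no minimum, with a minimum of 0.1 FPKM and with the highest transcript of each gene (3516, 2441, 3145 and 2719 of all genes), and 5 with TPM. Leaving out each library gave 0 to 2 members, 2 to 11 of the pathway genes and 372 to 4131 of all genes, the lowest each time without library 2 of mouse 3. All genes called were 1969 to 2215 without a library of mouse 1. TPM called 5694 of all genes, and removing the length trend called 6 pathway genes, of which Snap29 had not been called before. With a replicate block (the library number) 3385 genes (26.0%), 9 pathway genes and 1 member, Nsf (adjusted p = 0.0300), were called, with 2244 higher and 1141 lower in mouse 3. The length trend and the replicate block together, added after seeing the data, gave 2201 genes, 4 pathway genes and 2 members. Same-numbered libraries of different mice correlated in their deviations with r of 0.0028 to 0.107 (median 0.025), above 0.1 in 1 of 7 pairs. Differently numbered libraries had r of -0.135 to 0.065 (median -0.020), above 0.1 in 0 of 14 pairs. The labels do not say whether the numbers pair the libraries, and the main fit did not pair them. In the exact permutation tests the block brought no ratio or share past the threshold.

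Signs turned with TPM for Cplx2 (-0.26) and Vamp1 (-0.074). Over the left-out libraries Snap25 ran from -0.24 to 0.0006, Cplx2 from -0.013 to 0.099, Vamp1 from 0.12 to 0.32, the log2 difference of Snap25 to Stx1a from -0.11 to 0.34 and that of Snap25 to Vamp2 from -0.13 to 0.15. Without length scaling the ratios were 3.35 for Vamp2 to Vamp1, 0.5262 for Cplx1 to Cplx2, 0.00884 for Cplx3 to Cplx2, 2.83 for Snap25 to Vamp2 and 0.290 for Nsf to Snap25. With the highest transcript Snap25 was 19.0-fold Stx1a and 2.57-fold Vamp2. Snap25 to Vamp2 ran from 2.79 to 2.98 over the left-out libraries. The exact permutation tests of the ratios and shares were repeated with each library left out, and adjusted only within each setting. Most of these did not pass, and with all 8 libraries none did. Without library 1 of mouse 2 the mice differed past the threshold in Vamp2 to Vamp1 and in Nsf to Snap25 (exact permutation, adjusted p = 0.0286 for both). They also did in the Snap25 share (exact permutation, adjusted p = 0.0381). Without library 2 of mouse 3 they differed in Cplx1 to Cplx2 and Snap25 to Stx1a (exact permutation, adjusted p = 0.0429 for both). The causes were not tested.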

Other observations

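Cplx3 was 3.599 to 4.03 FPKM in the libraries numbered 1 of all 3 mice, 2.48 to 2.78 FPKM in libraries 2 and 3 of mice 1 and 2, and 3.72 FPKM in library 2 of mouse 3. This grouping was seen in the values, and the labels do not say what the numbers stand for.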
